A study of Daphnia pulicaria with 8 samples.

Results

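Timeless (Daplx7pEVm000785) and Cryptochrome-1 (Daplx7pEVm006186) are a pair of genes named after parts of the circadian clock, chosen by these identifiers out of 33069 genes in the deposited gene table. The choice was made with earlier results of these data known. Their isoforms, 20 of Timeless and 7 of Cryptochrome-1, were taken by the same identifiers from the 109737 isoforms of the isoform table. The animals were adult Daphnia pulicaria, a lake-dwelling water flea, with no dissection described; a Red and a Pale phenotype were each sampled in Black, Doe, Long and Round Lake, so that there were 4 Red and 4 Pale libraries and 1 library for each lake and phenotype. Per the labels, 30 animals from each lake went straight into RNA preservative, so that libraries appear to be pools of whole animals; whether the 30 were counted per phenotype is not stated, and no treatment, clone or age beyond adult is given. The time of day at which the animals were caught, which matters for any clock gene, is not given in the sources used here, so a difference between lakes or phenotypes and a difference in sampling hour cannot be told apart.

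In Drosophila, where the animal clock was first worked out, the Clock and Cycle proteins switch on the period and timeless genes, and the Period and Timeless proteins then enter the nucleus and switch Clock and Cycle off again. Cryptochromes are flavin-binding relatives of the DNA repair enzymes called photolyases. In Drosophila cryptochrome is a blue-light sensor that brings about the breakdown of Timeless at dawn, while in many other insects and in mammals a second type of cryptochrome acts as a repressor beside Period. The names in the deposited table do not say to which type Daplx7pEVm006186 belongs. Daphnia migrates up and down the water column each day, a behaviour tied to light.

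Both names are shared by several genes. There are 17 genes named Timeless or Protein timeless, 4 named Timeout/timeless-2, 4 named Cryptochrome-1 and 2 named Cryptochrome DASH. Copies with similar sequence can share reads, so the split of reads between namesakes is uncertain. The identifiers matched 0 of the entries of the RefSeq gene table for assembly SC_F0-13Bv2, and therefore no coordinates and no sequences are given here.

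The libraries held 19274 to 21606 genes above 0 FPKM (the fragments of a transcript scaled to its length and to the size of the library, the authors' unit, which allows levels of genes of different length to be compared). Low FPKM values are spaced as multiples of a single fragment, and that spacing puts the depth of Black Red at 1.85 times that of Black Pale and the others at 0.905 to 1.12 times; the number of reads is unknown. Long Red stood apart on the first principal component, which held 26.0% of the variance. Vitellogenin, the yolk precursor of egg-bearing females, summed to 957 to 2194 FPKM in Red and 1351 to 1742 FPKM in Pale libraries. Opsins and neuronal genes were present in each library.

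Timeless was a low-level transcript that was higher in the Red than in the Pale library of each lake. Its level was 1.16 FPKM in Black Red, 1.43 in Doe Red, 3.96 in Long Red and 1.27 in Round Red, against 0.77 FPKM in Black Pale, 1.31 in Doe Pale, 0.87 in Long Pale and 0.48 in Round Pale. The phenotypes overlapped, because Doe Pale lay above Black Red and Round Red. Long Red held the highest level of the 8 libraries and the other 3 Red libraries lay close together. Red over Pale came to 4.55 in Long, 2.65 in Round, 1.51 in Black and 1.09 in Doe. The means were 1.96 ± 1.34 FPKM in Red and 0.858 ± 0.344 FPKM in Pale (SD, n = 4 each).

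Cryptochrome-1 ran the other way and was lower in the Red library of each lake. It had 1.95 FPKM in Black Red, 0.70 in Doe Red, 1.00 in Long Red and 2.12 in Round Red, against 3.51 FPKM in Black Pale, 2.17 in Doe Pale, 3.64 in Long Pale and 2.81 in Round Pale. Each Red library lay below each Pale library, although Round Red and Doe Pale almost touched. Red over Pale came to 0.275 in Long, 0.323 in Doe, 0.556 in Black and 0.754 in Round. The means were 1.44 ± 0.698 FPKM in Red and 3.03 ± 0.681 FPKM in Pale (SD, n = 4 each).

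**Figure D1:**
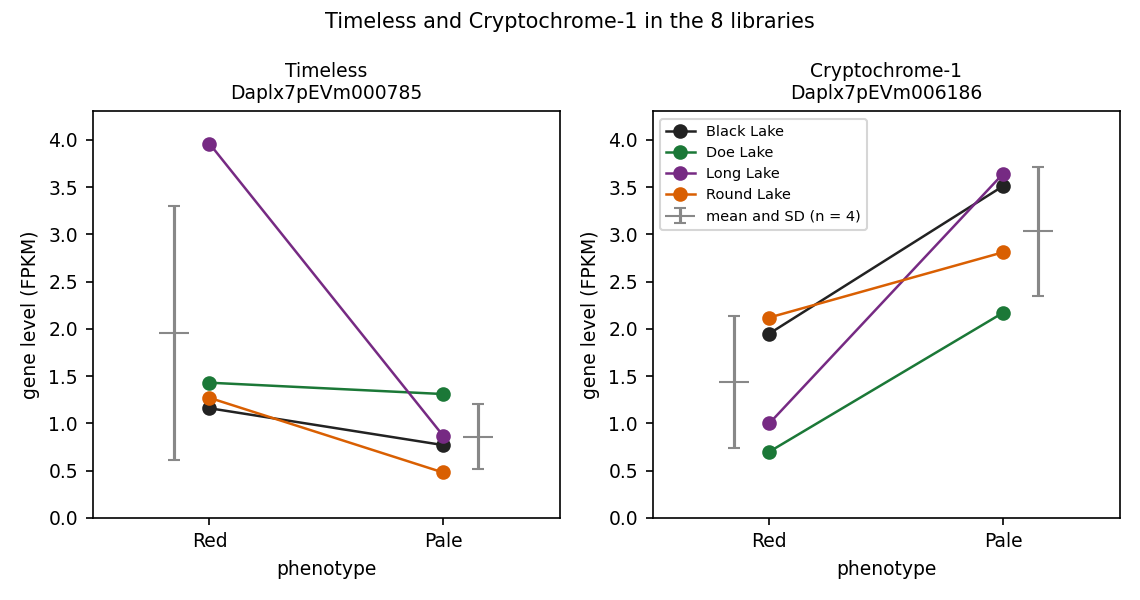
Level in FPKM (y axis) of Timeless (left) and Cryptochrome-1 (right) in the Red and Pale libraries (x axis), with a line joining the 2 libraries of a lake and grey marks for the mean and SD of 4. Timeless reached 3.96 FPKM in Long Red against 0.87 in Long Pale, while Cryptochrome-1 was 0.70 to 2.12 FPKM in Red and 2.17 to 3.64 FPKM in Pale.

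Neither difference passed the test across all genes. Levels were analysed as log2(FPKM + 1), a scale that understates the change of low genes, with lake as a block, over the 12865 genes whose mean reached 1 FPKM. Timeless passed this filter through its Red libraries, its Pale mean being 0.858 FPKM, so its test and direction are read with that limit. The Red minus Pale difference was 0.60 ± 0.27 (SE) for Timeless, with limma adjusted p = 0.446 and unadjusted p = 0.0709, and it was positive in 4 of 4 lakes. Without Long Lake it was 0.33 (limma adjusted p = 0.728). For Cryptochrome-1 it was -0.75 ± 0.20 (SE), with limma adjusted p = 0.303 and unadjusted p = 0.00972, and it was negative in 4 of 4 lakes. Flipping the signs of the 4 lake differences, an exact two-sided permutation test, gave p = 0.125 for each gene, which is the smallest p this design allows.

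The background for these values is that limma called 0 of 12865 genes in either direction (0%) at an adjusted p of 0.05. At unadjusted p under 0.05 it had 372 genes higher (2.89%) and 1195 lower (9.29%) in Red, a split that became 642 and 860 with size factors, 804 and 667 with quantile normalization and 637 and 722 without the gene of the highest share. A Red level above the Pale level in each of the 4 lakes was found in 6.57% of genes tested, and a lower one in 14.6%. Non-overlapping phenotypes with Red below Pale, as in Cryptochrome-1, were found in 4.45% of genes tested. A smaller p than that of Cryptochrome-1 was found for 3.20% of genes, and a smaller p than that of Timeless for 15.9%. A larger positive difference than that of Timeless was seen in 2.50% of genes and a more negative one than that of Cryptochrome-1 in 5.08%. Since the members were chosen with earlier results of these data known, their places among all genes are a description. The median difference of all genes was -0.08 as deposited and 0.02 after quantile normalization, and with that scaling the members had 0.65 and -0.67.

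**Figure D2:**
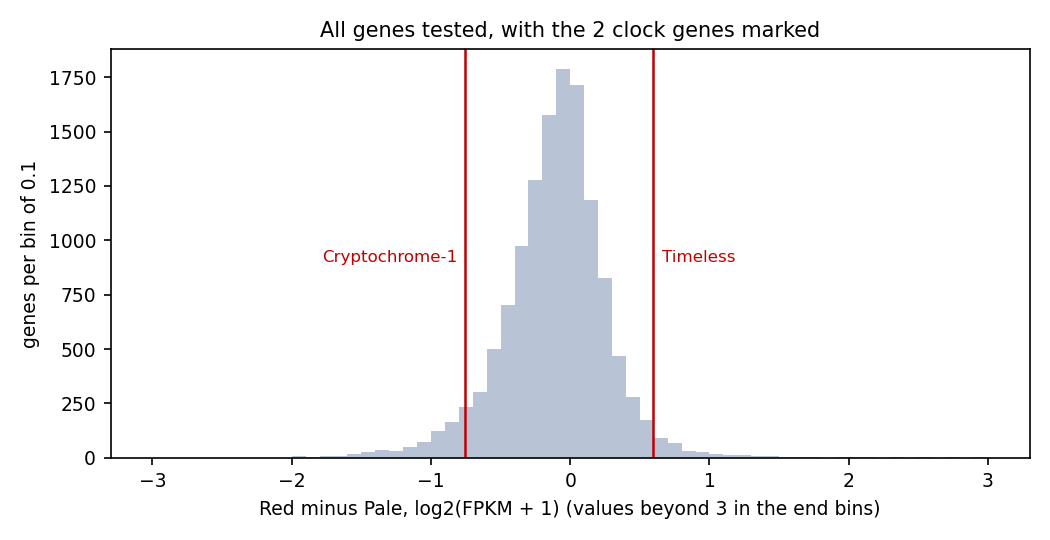
Number of genes (y axis) by Red minus Pale difference in log2(FPKM + 1) (x axis, bins of 0.1) for the 12865 genes tested, with red lines at Timeless and Cryptochrome-1. The lines stand at 0.60 and -0.75, toward the edges of the distribution, where further genes also lie.

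The ratio of the pair restates these levels in 1 value per library and is given as a description, since with Timeless higher and Cryptochrome-1 lower in Red in each lake it had to be higher in Red in each lake. The ratio of Timeless to Cryptochrome-1 was 0.595 in Black Red, 2.04 in Doe Red, 3.96 in Long Red and 0.599 in Round Red, against 0.219 in Black Pale, 0.604 in Doe Pale, 0.239 in Long Pale and 0.171 in Round Pale. Timeless exceeded Cryptochrome-1 in Doe Red and Long Red and in no other library, and Doe Pale lay at the level of Black Red and Round Red. On the log2 scale, Timeless minus Cryptochrome-1 averaged 0.23 ± 0.85 in Red and -1.12 ± 0.44 in Pale (SD, n = 4 each), a Red minus Pale difference of 1.35 ± 0.85 (SD over the 4 lakes).

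Across the 8 libraries, the levels of the pair were inversely related. On the log2 scale Pearson's r was -0.711 (exact permutation p = 0.0389) and Spearman's rho -0.786 (exact permutation p = 0.0279), this being the 1 relation tested. Without Long Red and Round Pale, the 2 libraries farthest from the Timeless median, r was -0.867 (exact permutation p = 0.0222) and rho -0.714 (exact permutation p = 0.136). The permutation treats the 8 libraries as exchangeable, although they share lakes, so these p-values are given as a description. Both genes differ by phenotype in opposite directions, so the relation is not separate from the phenotype difference, and 4 libraries per phenotype are too few to give it within one. It was not past 0.05 after quantile normalization (r = -0.650, exact permutation p = 0.0862) or after leaving out the gene with the highest share of FPKM (r = -0.696, exact permutation p = 0.0526).

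Between lakes, Timeless was highest in Long and lowest in Round, with Doe and Black between. The lake means of log2(FPKM + 1), each over 1 Red and 1 Pale library, were 1.61 in Long, 1.24 in Doe, 0.97 in Black and 0.87 in Round. Long minus the other 3 lakes was 0.58 ± 0.31 (SE), with limma adjusted p = 0.759, and it rests on the Red library, since Long Pale (0.87 FPKM) lay between the other Pale libraries. Round minus the others was -0.40 ± 0.31, Black minus the others -0.27 ± 0.31 and Doe minus the others 0.10 ± 0.31. The F test over lakes did not pass (limma adjusted p = 0.726), so neighbours in this order were not shown to differ beyond their spread.

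Cryptochrome-1 was lowest in Doe, and it was so in both phenotypes. Its lake means of log2(FPKM + 1) were 1.87 in Black, 1.79 in Round, 1.61 in Long and 1.22 in Doe. Doe minus the other 3 lakes was -0.54 ± 0.23 (SE), with limma adjusted p = 0.505 and unadjusted p = 0.0581. Black minus the others was 0.33 ± 0.23, Round minus the others 0.22 ± 0.23 and Long minus the others -0.02 ± 0.23. The F test over lakes gave limma adjusted p = 0.663. Over all genes, the F test called 0 genes (0%, with 1273 at unadjusted p under 0.05) and the single-lake tests called 0.0389% of genes for Black and 0% for Doe, Long and Round.

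As a description of the 8 values, phenotype took 60.5% of the sum of squares of Cryptochrome-1 and 37.9% of that of Timeless, against a median of 11.8% over all genes tested. Lake took 26.9% and 34.7%, against a median of 45.0%.

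The Timeless signal was spread over many isoforms, none of which was expressed in all libraries. Of its 20 isoforms, 18 were above 0 FPKM in at least 1 library, 6 of these in a single library, and 2 were at 0 throughout. Red libraries had 5 to 9 isoforms above 0 and Pale libraries 2 to 7. The 9 were in Black Red, put at 1.85 times the depth of Black Pale. Counts above 0 can follow depth and gene level, so they are not read as a phenotype difference. With all isoform means under 0.5 FPKM, 0 of the 20 were tested.

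The isoform t9 was the most abundant on average and was uneven. It had 0.00 FPKM in Black Red, 0.51 in Doe Red, 1.95 in Long Red and 0.15 in Round Red, against 0.37 FPKM in Black Pale, 0.71 in Doe Pale, 0.00 in Long Pale and 0.24 in Round Pale. It was thus higher in Red in Long and lower in Red in the other lakes, and it made up 33.4% of Timeless FPKM in Red and 38.5% in Pale. Without t9, the other isoforms summed to 1.16 FPKM in Black Red, 0.93 in Doe Red, 2.01 in Long Red and 1.13 in Round Red, against 0.40 FPKM in Black Pale, 0.60 in Doe Pale, 0.87 in Long Pale and 0.24 in Round Pale. These sums are a description with no test: t9 was set aside after its values were seen, and as it was lower in Red in 3 lakes, leaving it out moves the sums of those lakes toward a higher Red level.

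The isoform t1 was the one Timeless isoform higher in Red in all 4 lakes. It had 0.16 FPKM in Black Red, 0.29 in Doe Red, 0.76 in Long Red and 0.42 in Round Red, against 0.00 FPKM in Black Pale, 0.05 in Doe Pale, 0.11 in Long Pale and 0.00 in Round Pale. It made up 20.8% of Timeless FPKM in Red and 4.67% in Pale. It was singled out for its direction among the isoforms, so these values carry no test. Values this low can rest on very few fragments, and an exact 0 can be a failed estimate. The deposited isoform names give t18 as timeless protein and t12, t13 and t16 as uncharacterized, while the rest are named Timeless.

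The Cryptochrome-1 signal came mainly from t5, t8 and t1. The isoform t5 had 0.58 FPKM in Black Red, 0.00 in Doe Red, 0.39 in Long Red and 0.37 in Round Red, against 1.14 FPKM in Black Pale, 0.71 in Doe Pale, 1.21 in Long Pale and 0.56 in Round Pale. The isoform t8 had 0.63 FPKM in Black Red, 0.27 in Doe Red, 0.00 in Long Red and 0.43 in Round Red, against 0.83 FPKM in Black Pale, 0.79 in Doe Pale, 0.49 in Long Pale and 1.46 in Round Pale. Both were lower in Red in 4 of 4 lakes, and they were the only isoforms of Cryptochrome-1 to pass the filter of 0.5 FPKM on the mean. The Pale means were 0.905 FPKM for t5 and 0.8925 FPKM for t8, against Red means of 0.335 and 0.3325 FPKM. Both thus passed the filter through their Pale libraries, so the shared direction of t5 and t8 is given as a description.

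Their Red minus Pale differences were -0.52 ± 0.21 for t5 and -0.51 ± 0.21 for t8 (SE), with limma adjusted p = 0.598 and 0.605 over 35697 isoforms, of which 1 was called (0.0028%), a call lost when any 1 lake is left out (0 called). Between lakes, 0 of these 2 isoforms were called, against 0.0028% of isoforms for Black, 0.0112% for Doe and 0% for Long and Round. The isoform t1, the only one above 0 in all 8 libraries, was lower in Red in 3 lakes, with a mean of 0.258 FPKM in Red and 0.60 FPKM in Pale. The isoforms t4 and t2 had higher means in Red, 0.25 FPKM against 0.163 FPKM in Pale for t4 and 0.123 FPKM against 0.0325 FPKM in Pale for t2. No isoform share of Cryptochrome-1 moved the same way in all lakes, and the smallest exact two-sided sign-flip p of the 7 was 0.25.

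**Figure D3:**
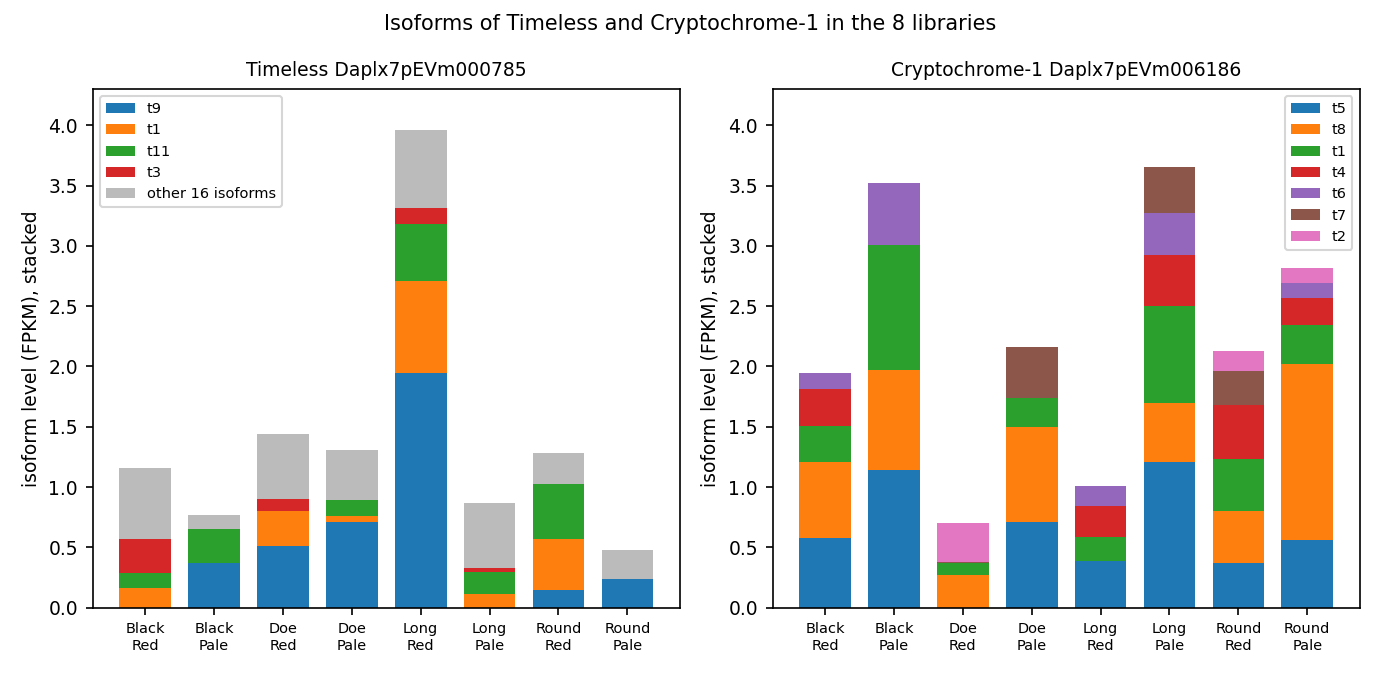
Stacked isoform levels in FPKM (y axis) of Timeless (left) and Cryptochrome-1 (right) in the 8 libraries (x axis). In Timeless the t9 bar is tall in Long Red (1.95 FPKM) and at 0 in Black Red and Long Pale, while in Cryptochrome-1 the t5 and t8 bars are shorter in the Red than in the Pale library of each lake.

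Neither gene was the main transcript bearing its name. Among genes named for timeless, Protein timeless Daplx7pEVm001694 was by far the most abundant. Its level was 11.2 FPKM in Black Red, 12.9 in Doe Red, 10.6 in Long Red and 12.3 in Round Red, against 13.5 FPKM in Black Pale, 11.4 in Doe Pale, 12.2 in Long Pale and 9.57 in Round Pale. It was higher in Red in 2 lakes, with a log2 difference of 0.01 ± 0.16 (SE). The other 15 genes named Timeless or Protein timeless had means under 1 FPKM, 11 of them under 0.5, and together they summed to 3.59 ± 0.369 FPKM in Red and 4.15 ± 0.552 FPKM in Pale (SD, n = 4 each).

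Daplx7pEVm000785 made up 7.43% of the summed FPKM of the 17 genes in Black Red, 7.82% in Doe Red, 22.2% in Long Red and 7.31% in Round Red, against 4.01% in Black Pale, 7.86% in Doe Pale, 5.08% in Long Pale and 3.50% in Round Pale. That share was higher in Red in 3 of 4 lakes (exact two-sided sign-flip test, p = 0.25). As it has the level of Daplx7pEVm000785 in it, the share is a description and not a separate result. The summed level of the 17 was 17.3 ± 1.17 FPKM in Red and 16.7 ± 2.28 FPKM in Pale (SD, n = 4 each). The most abundant of the 15, Timeless Daplx7pEVm005478, had means of 0.740 ± 0.129 FPKM in Red and 0.935 ± 0.359 FPKM in Pale (SD, n = 4 each) and was lower in Red in 3 lakes. Another, Daplx7pEVm003544, singled out after its values were seen, had 0.765 ± 0.255 FPKM in Red and 0.515 ± 0.230 FPKM in Pale and was higher in Red in 3 lakes. Timeout/timeless-2 Daplx7pEVm001403, whose relative in Drosophila serves chromosome upkeep as well as light entrainment, had 2.35 ± 0.408 FPKM in Red and 2.69 ± 0.535 FPKM in Pale (SD, n = 4 each), a log2 difference of -0.13 ± 0.16 (SE).

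Among cryptochromes, Cryptochrome-1 Daplx7pEVm006274 was the most abundant. It had 12.1 FPKM in Black Red, 13.7 in Doe Red, 13.2 in Long Red and 20.5 in Round Red, against 15.4 FPKM in Black Pale, 10.1 in Doe Pale, 9.11 in Long Pale and 7.91 in Round Pale. It was higher in Red in Doe, Long and Round and lower in Black, with a log2 difference of 0.46 ± 0.27 (SE) and limma adjusted p = 0.542. Cryptochrome-1 Daplx7pEVm006928 had 2.65 ± 0.725 FPKM in Red and 3.32 ± 1.08 FPKM in Pale (SD, n = 4 each), lower in Red in 3 lakes. The last gene of that name, Daplx7pEVm026638, was listed at 0 in all 8 libraries.

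Daplx7pEVm006186 made up 11.4% of the summed FPKM of the 4 genes in Black Red, 4.31% in Doe Red, 5.68% in Long Red and 8.55% in Round Red, against 14.8% in Black Pale, 14.2% in Doe Pale, 23.2% in Long Pale and 21.3% in Round Pale. The Red and Pale ranges of this share did not overlap (exact two-sided sign-flip test, p = 0.125). The share has the level of Daplx7pEVm006186 in it, whose ranges also did not overlap, as in 4.45% of genes tested. It is therefore a description and not a separate result. The Cryptochrome DASH genes, of a branch of the family known for light-dependent DNA repair, differed from one another. Daplx7pEVm007041 had 1.92 ± 0.418 FPKM in Red and 2.31 ± 0.577 FPKM in Pale, and Daplx7pEVm011323 had 1.49 ± 0.204 FPKM in Red and 0.835 ± 0.804 FPKM in Pale (SD, n = 4 each). No gene in the table was named photolyase.

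Whether each member differed from its namesakes in its response was tested on the difference of the Red minus Pale differences over lakes, in 6 comparisons. Because the members were chosen with earlier results of these data known, and their namesakes were not, the comparisons are given as a description. Cryptochrome-1 Daplx7pEVm006186 had a more negative difference than each of the 4 other cryptochromes tested in 4 of 4 lakes. The gap was -1.21 ± 0.64 from Daplx7pEVm006274, -0.52 ± 0.61 from Daplx7pEVm006928, -0.58 ± 0.26 from Daplx7pEVm007041 and -1.28 ± 0.53 from Daplx7pEVm011323 on the log2 scale (SD over 4 lakes; exact two-sided sign-flip p = 0.125 each, adjusted over the 6 comparisons p = 0.188). Timeless Daplx7pEVm000785 exceeded Protein timeless Daplx7pEVm001694 by 0.58 ± 0.72 and Timeout/timeless-2 by 0.73 ± 0.64, each in 3 of 4 lakes (exact two-sided sign-flip p = 0.25, adjusted p = 0.25). None of the 6 passed, and this design could not have let any pass. Daplx7pEVm011323 had a mean of 0.835 FPKM in Pale, under the filter of 1 FPKM, and 1.49 FPKM in Red. It thus passed the filter through its Red libraries, and its gap is read with that limit.

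Of 36 genes that matched the clock name patterns, 17 reached a mean of 1 FPKM and were tested, and 0 passed in either direction, against 0% of all genes. Unadjusted p was under 0.05 for 0 higher and 2 lower genes, Cryptochrome-1 Daplx7pEVm006186 and one of the clock-controlled proteins described next, beside 2.89% higher and 9.29% lower of all genes tested. Of the 17, 2 were higher in Red in all 4 lakes (Timeless and Timeless-interacting, mRNA protein) and 1 was lower in all 4 (Cryptochrome-1 Daplx7pEVm006186), beside 6.57% higher and 14.6% lower of all genes tested; counts this small cannot be set apart from those shares. The list's median difference was -0.13, beside -0.08 over all genes. The other 19 had means of 0 to 0.838 FPKM; 15 of them are further timeless genes, 3 are timeout genes and 1 is a cryptochrome.

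**Figure D4:**
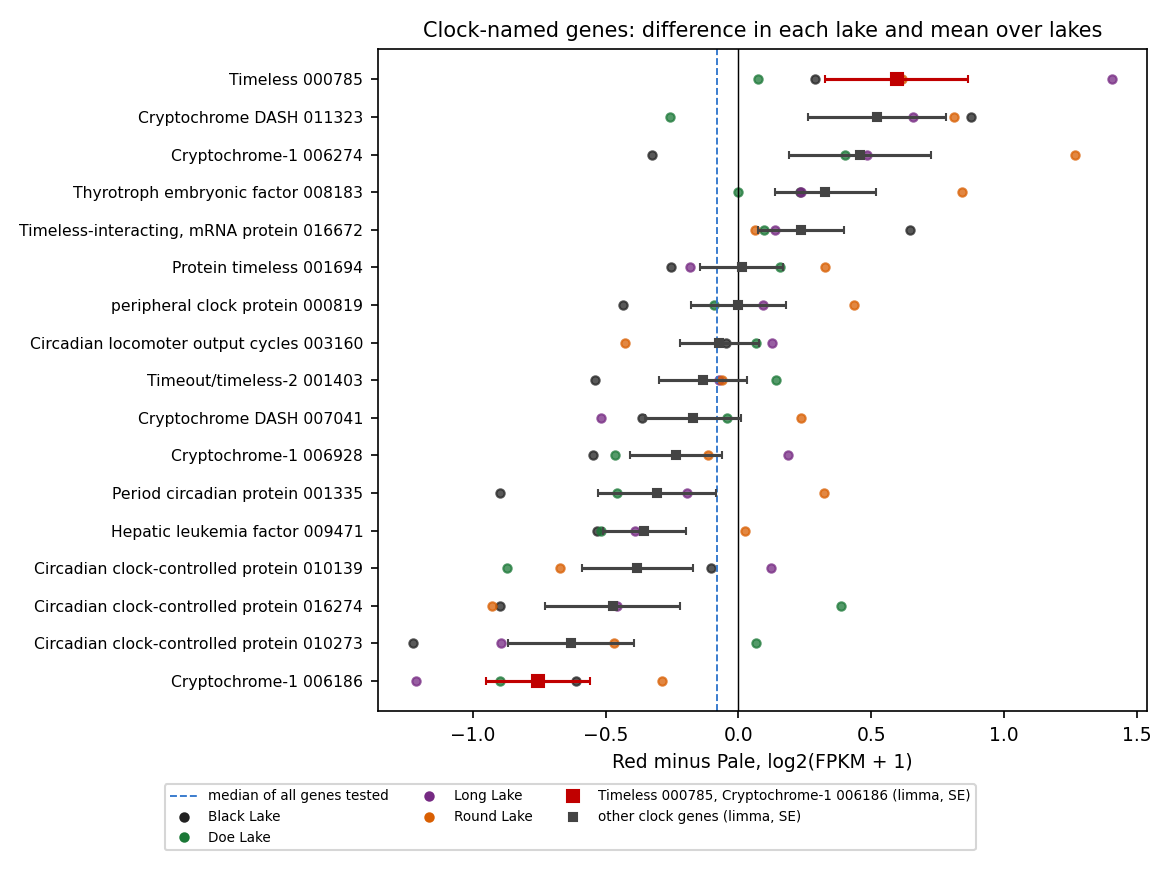
Red minus Pale difference in log2(FPKM + 1) (x axis) for the 17 clock-named genes tested (y axis, with the last 6 digits of the identifier), as the mean over lakes with its SE (squares) and in each lake (dots). Timeless stands highest at 0.60 and Cryptochrome-1 Daplx7pEVm006186 lowest at -0.75, and most other genes have dots on both sides of 0. Both members were chosen with earlier results of these data known, so their outer places are a description.

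Among the core loop genes, Period circadian protein (Daplx7pEVm001335), the partner of Timeless in Drosophila, was well expressed and lower in Red in 3 lakes. It had 10.9 FPKM in Black Red, 11.7 in Doe Red, 12.9 in Long Red and 16.3 in Round Red, against 21.2 FPKM in Black Pale, 16.5 in Doe Pale, 14.9 in Long Pale and 12.9 in Round Pale. Its difference was -0.31 ± 0.22 (SE; limma adjusted p = 0.616), so in Black, Doe and Long it lay on the side of Cryptochrome-1 and in Round on that of Timeless. Circadian locomoter output cycles protein kaput (Daplx7pEVm003160), the Clock activator, had 3.61 ± 0.400 FPKM in Red and 3.84 ± 0.470 FPKM in Pale (SD, n = 4 each). Its difference of -0.07 ± 0.15 (SE) turned positive with size factors (0.00396), with quantile normalization (0.02) and without the gene of the highest share (0.02).

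No gene name matched the patterns for Cycle, its mammalian counterpart, Vrille, Clockwork orange or pigment-dispersing hormone. Both genes with names close to that of the mammalian counterpart of Cycle were looked up after values were seen, and they went opposite ways. A close name does not make either gene a counterpart of Cycle, and neither matched the clock name patterns. Aryl hydrocarbon receptor nuclear translocator (Daplx7pEVm004304), the more abundant, had 22.0 ± 1.72 FPKM in Red and 18.5 ± 2.33 FPKM in Pale (SD, n = 4 each). It was higher in Red in 3 of 4 lakes, with a difference of 0.24 ± 0.15 (SE; limma adjusted p = 0.565). Aryl hydrocarbon receptor nuclear translocator protein 1 (Daplx7pEVm002806) had 3.20 ± 0.157 FPKM in Red and 4.395 ± 1.40 FPKM in Pale (SD, n = 4 each). It was lower in Red in 4 of 4 lakes, with a difference of -0.33 ± 0.17 (SE; limma adjusted p = 0.494).

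Of the genes related to the second loop and to output, Hepatic leukemia factor (Daplx7pEVm009471), which belongs to the PAR leucine zipper family of Drosophila Pdp1, had 29.1 ± 8.05 FPKM in Red and 37.0 ± 6.65 FPKM in Pale (SD, n = 4 each), a difference of -0.35 ± 0.16 (SE). Its relative Thyrotroph embryonic factor (Daplx7pEVm008183) had 2.38 ± 0.683 FPKM in Red and 1.69 ± 0.531 FPKM in Pale, with equal levels of 2.48 FPKM in both Doe libraries. The 3 genes named Circadian clock-controlled protein were each lower in Red in 3 of 4 lakes. Daplx7pEVm010273 had 10.1 FPKM in Black Red, 11.5 in Doe Red, 11.1 in Long Red and 11.4 in Round Red, against 24.9 FPKM in Black Pale, 10.9 in Doe Pale, 21.4 in Long Pale and 16.1 in Round Pale, a difference of -0.63 ± 0.24 (SE; limma adjusted p = 0.389). Daplx7pEVm016274 and Daplx7pEVm010139 had differences of -0.47 ± 0.25 and -0.38 ± 0.21 (SE). The remaining gene of the list, Nck-associated protein 5 nap-5 peripheral clock protein (Daplx7pEVm000819), had 0.00 ± 0.18.

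Kinases, phosphatases and ligases that set the pace of the clock by marking or sparing its proteins were followed as well. Of 21 genes matched, 20 were tested and 0 passed. Their median was -0.03, beside -0.08 over all genes. It was 0.05 with size factors, beside -0.01 over all genes, 0.12 with quantile normalization, beside 0.02, and 0.07 without the gene of the highest share, beside 0.00, so its sign turned as all genes shifted. The smallest unadjusted p belonged to Serine/threonine-protein kinase NLK (Daplx7pEVm007360), whose Drosophila relative nemo acts on Period, with 8.79 ± 2.05 FPKM in Red and 11.9 ± 1.26 FPKM in Pale (SD, n = 4 each; limma unadjusted p = 0.0395). Casein kinase II subunit beta (Daplx7pEVm016318) differed by -0.29 ± 0.13 (SE), and the phosphatase 2A subunits Daplx7pEVm006098 and Daplx7pEVm006338 by -0.27 ± 0.14 and -0.20 ± 0.13. Casein kinase 1, delta a (Daplx7pEVm011392), the doubletime type of kinase, differed by 0.00 ± 0.14, and Glycogen synthase kinase-3 beta (Daplx7pEVm010472), called shaggy in Drosophila, by 0.07 ± 0.14.

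Since the mammalian Timeless protein and Timeout work at the replication fork, genes of that machinery were followed too. Of 28 matched, 21 were tested and 0 passed; the median was 0.11 and 16 of 21 differences were positive, beside a median of -0.08 and 4958 positive differences among the 12865 genes tested. Claspin (Daplx7pEVm001550), a fork protein that works with them in mammals, had 3.19 FPKM in Black Red, 3.22 in Doe Red, 3.32 in Long Red and 4.08 in Round Red, against 2.43 FPKM in Black Pale, 2.31 in Doe Pale, 2.57 in Long Pale and 2.22 in Round Pale. All Red values lay above all Pale values, which held for 1.62% of genes tested, with a difference of 0.39 ± 0.14 (SE; limma adjusted p = 0.370). Timeless-interacting, mRNA protein (Daplx7pEVm016672), named for the partner of mammalian Timeless and counted in both lists, had 2.85 ± 0.866 FPKM in Red and 2.22 ± 0.188 FPKM in Pale (SD, n = 4 each). DNA polymerase alpha catalytic subunit (Daplx7pEVm000855) differed by 0.39 ± 0.14 (SE), and Proliferating cell nuclear antigen (Daplx7pEVm016415), the sliding clamp, by -0.36 ± 0.22.

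In what appear to be pools of whole animals, fewer cells of a type and less RNA per cell cannot be told apart. Clock genes are known from eyes, brain and other tissues. The 7 neuronal genes named for Elav, Syntaxin-1A, Synapsin-1 or Choline O-acetyltransferase summed to 37.0 to 53.6 FPKM in Red and 48.8 to 54.2 FPKM in Pale. They were lower in Red in Black, Long and Round and higher in Red in Doe, and 0 of them were at 0 throughout. The 39 opsins named gprop1 or gprop2 summed to 1510 to 2623 FPKM in Red and 1254 to 3274 FPKM in Pale, lower in Red in Black and Long and higher in Doe and Round; 1 was at 0 throughout. A further eye group, the 3 Phosrestin arrestins, summed to 192 to 246 FPKM in Red and 88.3 to 217 FPKM in Pale. Unlike the opsins, the arrestins were higher in Red in 3 lakes, Black among them, and lower in Long. The whole neuron list of 25 genes summed to 115 to 142 FPKM in Red and 132 to 145 FPKM in Pale. Unlike the sum of the 7, its sum was higher in Red in Round as well as in Doe, and lower in Black and Long. It had 7 positive and 13 negative differences among the 20 tested. The part of these tissues in the levels of Timeless and Cryptochrome-1 was not tested. The germ line list had 15 positive and 2 negative differences among 17 tested, the dividing cell list 12 and 3 of 15, the muscle list 0 and 8 of 8, the gut list 24 and 61 of 85, the eye list 23 and 18 of 41 and the yolk list 2 and 7 of 9, and their part was not tested either. The dividing cell list shares the DNA replication licensing factors and Proliferating cell nuclear antigen with the replication fork genes above, so its counts are not a separate observation. Over all genes tested, 4958 differences were positive and 7907 negative. This split was not recomputed under the other scalings, which shift the median of all genes upward.

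The genes whose pattern over the 8 libraries was most like that of each member were picked by Pearson's r of log2(FPKM + 1) among 10118 genes with a descriptive name, as a description. For Timeless they were AP-1 complex subunit mu (Daplx7pEVm000546, r = 0.970), Z9 acyl-CoA desaturase B (Daplx7pEVm011960, r = 0.917) and Activating signal cointegrator (Daplx7pEVm058811, r = 0.910), each with its highest level in Long Red. Long Red was the highest library for 8.98% of all genes tested. The likeness is in shape only: AP-1 complex subunit mu averaged 3.45 ± 0.279 FPKM in Red and 3.24 ± 0.139 FPKM in Pale (SD, n = 4 each), a far smaller range than that of Timeless.

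For Cryptochrome-1 they were Purine nucleoside phosphorylase (Daplx7pEVm011787, r = 0.989), Isobutyryl-CoA dehydrogenase, mitochondrial (Daplx7pEVm011211, r = 0.969) and Arf-GAP with coiled-coil, ANK repeat and PH domain-containing protein (Daplx7pEVm004239, r = 0.968). Purine nucleoside phosphorylase, an enzyme of nucleoside salvage, had 15.4 FPKM in Black Red, 6.66 in Doe Red, 9.38 in Long Red and 15.3 in Round Red, against 23.9 FPKM in Black Pale, 15.97 in Doe Pale, 29.96 in Long Pale and 19.4 in Round Pale. Its order of libraries resembled that of Cryptochrome-1, with Doe Red lowest and Long Pale highest in both. An r above 0.9 was found for 76 of the 10118 genes with Cryptochrome-1 and for 5 with Timeless.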

How the data were processed

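The authors deposited FPKM values with 2 decimals per gene and per isoform, 1 column per library. Reads were trimmed with a tool called Trimmomatic, per the submitters' processing notes; the aligner, quantification tool and genome build are not given in the sources used here. Libraries were rRNA-depleted and directional, per the labels' protocols. The deposited log2 ratios were not used.

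Gene names were taken from the deposited tables. Values were analysed as log2(FPKM + 1), filtered at a mean of 1 FPKM (genes) or 0.5 FPKM (isoforms), with limma 3.58.1 in R 4.3.3 (mean-variance trend, lake as a block, two-sided, Benjamini-Hochberg adjustment over all features, threshold 0.05). Lakes were tested by an F test and against the mean of the other 3. The procedure was tested on simulated data. Lake pairs the libraries by design; the deviations of paired libraries from their phenotype means had correlations of 0.485 for Black, -0.015 for Doe, -0.021 for Long and 0.214 for Round. No library is repeated, so p-values of the phenotype and lake tests measure how differences vary between lakes. Those of the relation of the pair come from permuting the 8 libraries without regard to lake. The members and lists were chosen with earlier results of these data known. Named were both members, all clock-named genes, and per further list genes of smallest p or highest level. FPKM carry no counts, so no counting intervals are given.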

Additional observations from a re-analysis of the deposited data

Results flagged for a closer look

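In groups of 4 libraries, a library whose distance to its nearest neighbour took more of the group's range than Dixon's test allows was marked. Of the 38 groups looked at, 3 met this, and chance gives about 5% of groups. Timeless (Daplx7pEVm000785) stood out in Long Red at 3.96 FPKM, with a gap of 0.904 of the range over the other Red libraries. Thyrotroph embryonic factor (Daplx7pEVm008183) stood out in Doe Pale at 2.48 FPKM, against 1.40 to 1.46 FPKM in the other Pale libraries. Cryptochrome DASH (Daplx7pEVm011323) stood out in the same library at 2.04 FPKM, against 0.40 to 0.47 FPKM in the other Pale libraries.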

How the results depend on the processing

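Timeless remained higher and Cryptochrome-1 lower in Red under each of 12 alternatives, and neither passed under any. A filter at a mean of 5 FPKM left neither in the fit. Their limma adjusted p ran from 0.415 to 0.728 for Timeless and from 0.310 to 0.605 for Cryptochrome-1. With no replicate block (lake left out of the model) the differences were the same, 0.60 and -0.75, with limma adjusted p = 0.542 and 0.397, and the 1 isoform called of all isoforms became 2; no call of a gene changed (0 called in both, with 321 higher and 999 lower at unadjusted p under 0.05 by limma). Leaving out 1 lake gave 0.33 to 0.77 for Timeless, lowest without Long, whose pair accounts for a change of over 1.5 times, and -0.91 to -0.60 for Cryptochrome-1. The pseudocount set the size: 0.99 and -1.12 with 0.1, 0.23 and -0.32 with 5. Timeless passed the filter through its Red libraries, its Pale mean being 0.858 FPKM. The clock list's median moved to -0.35 with a mean of at least 5 FPKM, where 7 genes are left. The relation of the pair missed 0.05 with quantile normalization (-0.650) and without the gene of the highest share (-0.696). The difference of Cryptochrome-1 between Long and other lakes turned positive with a pseudocount of 5 (0.00861), size factors (0.0162), quantile normalization (0.0595) and without the gene of the highest share (0.0158), and ranged from -0.22 to 0.11 with 1 lake left out; that of Timeless between Doe and other lakes ranged from -0.0426 to 0.32. Causes were not tested. Among 63 further genes named or listed, 20 changed sign under some alternative and 0 were called.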
